A study of Mus musculus with 12 samples.

Results

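The genes described here encode the translation initiation and elongation factors, the proteins that load ribosomes onto mRNA and move them along it. They were chosen by symbol alone: every gene of the table whose symbol begins with Eif or Eef followed by a digit, leaving out Eif2c genes (Argonaute proteins), Eif4e1b and Eif4enif1. The rule gave 57 of the 11298 genes, 50 with an Eif and 7 with an Eef symbol. Eif5a2, Eef1a2 and Eif2ak2 were not among the rows used here. RNA was profiled by Smart-seq2, which primes cDNA with oligo-dT at poly(A) tails, in C57BL/6 mice labelled Pabpn1l-WT or Pabpn1l-KO. The product of Pabpn1l binds poly(A) tails in the oocyte and early embryo. Each genotype was sampled as GV oocytes (full-grown oocytes with an intact germinal vesicle, collected in vivo), 1-cell embryos and 2-cell embryos (both from culture in KSOM medium), which gives 6 groups of 2 libraries, each library made from 10 oocytes or embryos. The labels do not describe the knockout allele, and they do not say whether KO refers to the mother, the embryo or both, or whether the 2 libraries of each group are from different animals. The p-values therefore measure the spread between these libraries, which may be technical.

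Initiation starts when eIF2, loaded with GTP and the initiator tRNA, joins the small ribosomal subunit together with eIF1, eIF1A, eIF5 and the large scaffold eIF3. The cap-binding complex eIF4F brings the mRNA, eIF1 and eIF5 govern the choice of the start codon, eIF5B joins the large subunit, and eEF1 and eEF2 then carry the ribosome from codon to codon. Growing oocytes store mRNA for these proteins. Much of the stored mRNA is degraded between oocyte maturation and the 2-cell stage, when transcription from the embryonic genome takes over, and Pabpn1l has been studied as part of that clearance.

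Values were deposited as FPKM (mapped fragments, scaled for transcript length and library size), a unit that allows levels to be compared between genes. No value lay below 1 FPKM, called the floor here: a gene at the floor had a level at or under it, and the size of a difference from such a group is not defined. In the 8 embryo libraries each value above the floor was a 6-digit FPKM times 1 factor per library, between 0.116 and 0.552, whereas the factor was 1 in the 4 oocyte libraries. The factor was 0.269 and 0.212 in WT 1-cell embryos, 0.432 and 0.552 in KO 1-cell embryos, 0.116 and 0.123 in WT 2-cell embryos, and 0.130 and 0.121 in KO 2-cell embryos. Its basis is not given in the sources used here, so every comparison is given on the deposited scale and, where it matters, on FPKM before the factor. FPKM carry no read counts, and the depth of the libraries is unknown. Pabpn1l itself lay at 220 and 204 FPKM in WT GV oocytes and at 7.23 and 4.98 FPKM in KO GV oocytes. The 10 oocyte markers examined summed to between 18407 and 20288 FPKM in GV oocytes, to 3528 and 4812 FPKM in WT and 10336 and 11521 FPKM in KO 1-cell embryos, and to 999 and 1025 FPKM in WT and 1957 and 2008 FPKM in KO 2-cell embryos. The table held 4 of 11 cumulus and granulosa markers, which summed to between 73.0 and 85.4 FPKM in GV oocytes and between 4.14 and 4.65 FPKM in 2-cell embryos, and 3 of 7 sperm markers, which summed to at most 73.1 FPKM. Of the 4 granulosa markers, Fshr did not exceed 2.38 FPKM, but the others read higher in GV oocytes. There Esr2 lay between 43.9 and 51.1 FPKM, Cyp19a1 between 23.8 and 31.3 FPKM, and Inha between 1.07 and 9.49 FPKM. Lyz2, the 1 of 5 blood markers in the table, read 2.33 and 2.70 FPKM in KO 2-cell embryos and was at the floor elsewhere. The part of these markers in the results below was not tested.

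In GV oocytes the factor mRNAs covered the range from the floor to 666 ± 11.6 FPKM (SD, n = 2, WT Eef1a1), with a median of 58.9 FPKM over the 57 genes in WT. Eef1a1, which delivers aminoacyl-tRNA to the ribosome, read 674 and 658 FPKM in the WT libraries and 736 and 650 FPKM in the KO libraries. It was followed in WT by Eif1ax (495 and 579 FPKM), Eif1b (509 and 524), Eif1 (378 and 321), Eif2s2 (314 and 341) and Eif5a (313 and 329). The ranges of Eif1ax and Eif1b overlapped, as did those of Eif1, Eif2s2 and Eif5a. At the other end, Eif2s3y, the Y-linked copy of the eIF2 gamma subunit gene, was at the floor in all 4 oocyte libraries, and Eif2ak3, which encodes the kinase PERK, lay at 1.44 and 1.74 FPKM in WT. Subunits of 1 complex differed widely in mRNA level. In WT GV oocytes the eIF3 subunit genes ranged from 14.4 FPKM (mean, Eif3b) to 295 FPKM (Eif3k), and the eIF2B genes from 3.91 FPKM (Eif2b5) to 274 FPKM (Eif2b1).

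**Figure D1:**
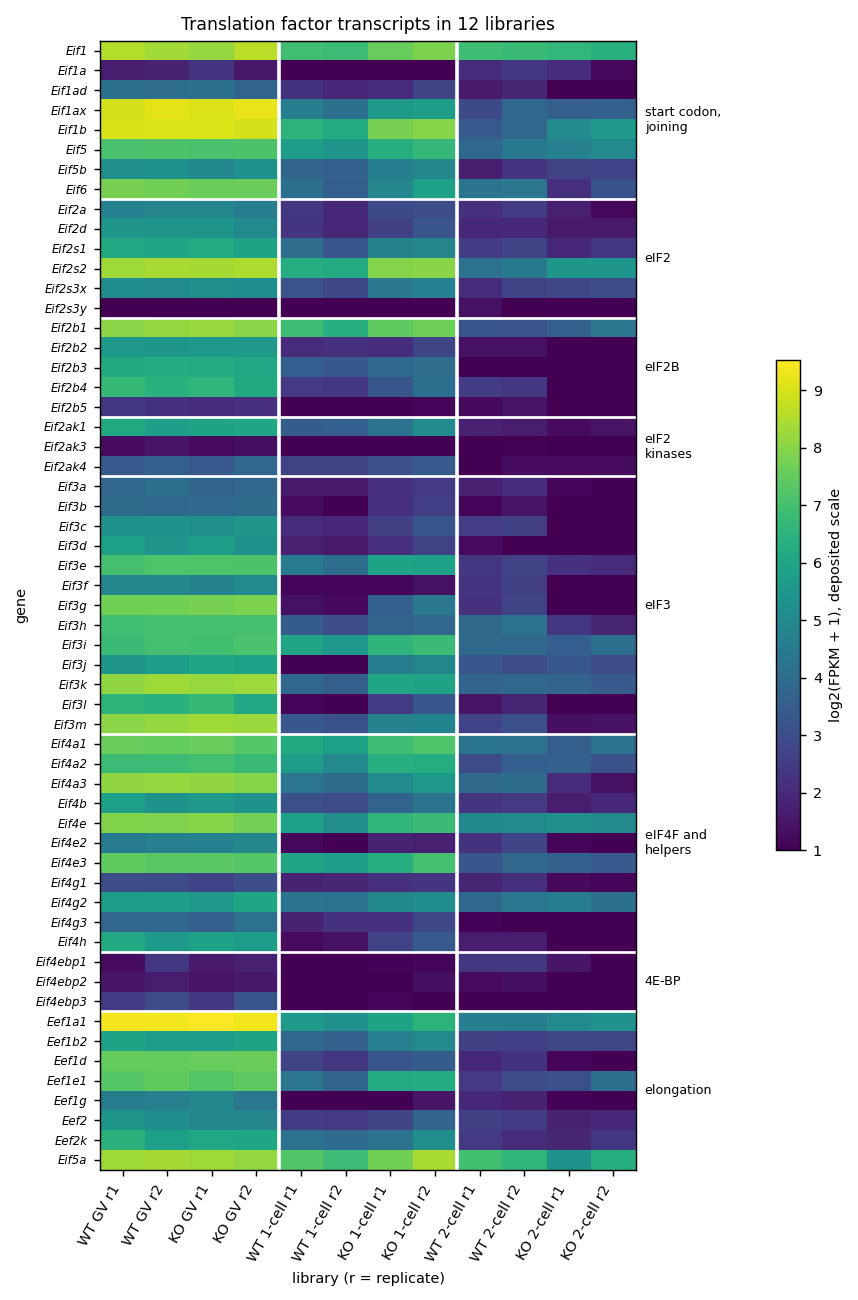
Levels of the 57 translation factor mRNAs (rows, grouped by role) in the 12 libraries (columns), as log2(FPKM + 1) on the deposited scale, where 1 is the floor. The 4 oocyte columns look alike, and the rows darken from oocyte to 2-cell embryo, with Eif1, Eif5a and Eif4e among the brighter rows at the 2-cell stage.

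Without Pabpn1l, no factor mRNA was called different in GV oocytes. In the limma model over all 11298 genes, 0 of 57 passed an adjusted p of 0.05 (Benjamini-Hochberg over all genes), and 0 of 57 had an unadjusted p under 0.05, on either scale. On the deposited scale 985 of the 11298 genes had an unadjusted p under 0.05. Over all genes tested, 0.584% were called higher and 1.04% lower in KO oocytes on the deposited scale, and 0.0177% higher and 0.0177% lower before the factor. The median log2 difference of the factors, KO against WT, was -0.02, as over all genes (-0.02). Without WT GV replicate 1, 1 gene, Eif2ak3, was called lower.

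From the WT oocyte to the WT 1-cell embryo, 56 of the 57 mRNAs fell on the deposited scale. Eif2s3y, at the floor in both groups, was the exception. The background was high: 85.8% of all genes were called lower and 0.0354% higher, and 0 of 57 factors were higher. The median log2 change of the factors was -2.45, beside -1.49 over all genes tested. In the 1-cell embryo the median factor stood at 15.8% of its own oocyte mean, and the median eIF3 subunit gene at 4.52%. The 5 largest falls among the called genes were those of Eif3g, Eif3l, Eef1d, Eif3m and Eif1ax. Eif3g, an RNA-binding subunit of eIF3, went from 207 and 208 FPKM to 1.61 and 1.35 FPKM, a log2 change of -6.40 ± 0.25 (SE, adjusted p = 8.08e-08). Eif3l changed from 93.4 and 85.5 FPKM to 1.18 and 1.01 FPKM (log2 -5.43 ± 0.28, adjusted p = 2.41e-07). Both genes were close to the floor in the 1-cell libraries. Eef1d, a subunit of the exchange factor for eEF1A, went from 182 and 182 FPKM to 5.74 and 4.21 FPKM (log2 -4.95 ± 0.18, adjusted p = 6.53e-08). Eif3m went from 264 and 290 FPKM to 9.05 and 7.71 FPKM (log2 -4.89 ± 0.15, adjusted p = 5.74e-08). Eif1ax, the X-linked gene for eIF1A, went from 495 and 579 FPKM to 23.8 and 16.7 FPKM (log2 -4.68 ± 0.29, adjusted p = 5.83e-07).

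Before the factor, the same step split the family. There 29 of 57 were called lower (background 27.9%) and 4 were called higher (background 12.3%): Eif2ak4, Eif3i, Eif4e3 and Eif4g1. By role, 12 of 13 eIF3 subunit genes were lower before the factor, with a median log2 change of -2.27 over the 13. Also lower were 4 of 11 genes of eIF4F and its helpers and 5 of 8 genes grouped under elongation. For start codon selection and subunit joining it was 3 of 8 genes. The 5 genes with the largest falls kept their direction and their call on that scale.

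From the WT 1-cell to the WT 2-cell embryo, 10 factor mRNAs rose and 21 fell (background 9.45% and 29% of all genes), with a median log2 change of -0.25. Before the factor the split turned over, with 29 higher and 13 lower (background 21% and 14.9%). Without WT 2-cell replicate 2, the number called higher on the deposited scale was 6. The largest rise was that of Eif3j, the loosely bound subunit that helps position the mRNA: it was at the floor in both WT 1-cell libraries and at 8.69 and 6.80 FPKM in the 2-cell libraries (log2 2.12 ± 0.19, adjusted p = 3.05e-05). Eif4e2, a cap-binding protein that represses translation, read 1.28 and 1.00 FPKM in 1-cell and 3.71 and 5.82 FPKM in 2-cell embryos (log2 1.41 ± 0.19, adjusted p = 0.000359). Eif4ebp1, which encodes an inhibitor of eIF4E, was at the floor in the 1-cell libraries and at 4.10 and 4.25 FPKM in the 2-cell libraries (log2 1.37 ± 0.29, adjusted p = 0.00418). These 3 genes were at or near the floor at the 1-cell stage. Eif3f read 1.19 and 1.23 FPKM and then 3.89 and 5.14 FPKM (log2 1.31 ± 0.17, adjusted p = 0.000224). Eif1a, the autosomal copy of the eIF1A gene, went from the floor to 3.23 and 4.20 FPKM (log2 1.23 ± 0.29, adjusted p = 0.00844). That call was lost without WT 2-cell replicate 2 (log2 1.08, adjusted p = 0.0922).

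The largest fall of this step belonged to Eif2b1, a regulatory subunit of eIF2B, at 115 and 81.5 FPKM in WT 1-cell and 8.51 and 8.01 FPKM in WT 2-cell embryos (log2 -3.40 ± 0.26, adjusted p = 1.31e-05). Eif1b followed, from 89.8 and 73.2 FPKM to 9.56 and 13.7 FPKM (log2 -2.72 ± 0.22, adjusted p = 1.99e-05). Eif2b3 went from 10.6 and 9.14 FPKM to the floor in both libraries (log2 -2.44 ± 0.14, adjusted p = 2.95e-06). In none of the 3 did the groups overlap, and the share of all genes without overlap was not counted for this step. Eif4e3, a cap-binding relative of eIF4E, went from 61.4 and 53.0 FPKM to 8.74 and 13.2 FPKM (log2 -2.30 ± 0.25, adjusted p = 8.70e-05). Eif4a2, an eIF4A helicase, went from 50.3 and 31.6 FPKM to 6.81 and 10.6 FPKM (log2 -2.10 ± 0.27, adjusted p = 0.000261). These 5 falls were called before the factor as well.

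In 1-cell embryos 42 of the 57 mRNAs were higher in KO than in WT and 0 were lower on the deposited scale. The background was 52.7% of all genes higher and 0.0974% lower. At an unadjusted p under 0.05 the number was 43 in either direction, beside 6420 of the 11298 genes. The median log2 difference of the factors was 0.91, beside 0.57 over all genes. In 23 of the called genes the difference was 2-fold or more, beside 2736 of the 11298 genes. The count depended on single libraries: it was 24 without WT 1-cell replicate 2 and 26 without KO 1-cell replicate 2. It depended more on the scale, and the library factors of the 1-cell embryos differed between the genotypes. Before the factor 10 of 57 were higher and 0 lower (background 8.05% higher and 2.89% lower), and 16 of the 42 turned sign. The 10 were Eef1e1, Eif2s2, Eif3b, Eif3e, Eif3g, Eif3j, Eif3k, Eif3l, Eif3m and Eif4h. With quantile normalization 8 were higher and 5 lower (background 12.8% and 16.4%). Thus 7 of the 10 that stayed higher before the factor were subunits of eIF3, which has 13 measured members, and these 7 stayed higher under quantile normalization too, with Eif2s2.

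The 5 largest differences at the 1-cell stage comprised 4 eIF3 genes. Eif3j was at the floor in WT and read 23.1 and 29.2 FPKM in the KO libraries (log2 3.75 ± 0.19, adjusted p = 9.63e-06). Eif3g read 1.61 and 1.35 FPKM in WT and 11.5 and 20.2 FPKM in KO (log2 2.72 ± 0.25, adjusted p = 9.20e-05). Eif3k read 13.8 and 10.9 FPKM in WT and 63.2 and 58.7 FPKM in KO (log2 2.22 ± 0.17, adjusted p = 4.27e-05). For all 3 the KO libraries lay above both WT libraries on either scale, as they did in 64.3% of all genes on the deposited scale. The share of all genes before the factor was not counted. Eef1e1, whose product belongs to the multi-tRNA-synthetase complex in spite of its symbol, read 19.6 and 12.8 FPKM in WT and 72.9 and 74.8 FPKM in KO (log2 2.15 ± 0.33, adjusted p = 0.00107). Its call was lost under quantile normalization (log2 0.93, adjusted p = 0.0535). Eif3l read 1.18 and 1.01 FPKM in WT and 4.68 and 8.92 FPKM in KO (log2 1.84 ± 0.28, adjusted p = 0.00108). Before the factor the log2 differences of the 5 were smaller: 3.25 ± 0.18 for Eif3j, 2.17 ± 0.20 for Eif3g, 1.27 ± 0.18 for Eif3k, 1.18 ± 0.33 for Eef1e1 and 1.31 ± 0.25 for Eif3l.

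**Figure D2:**
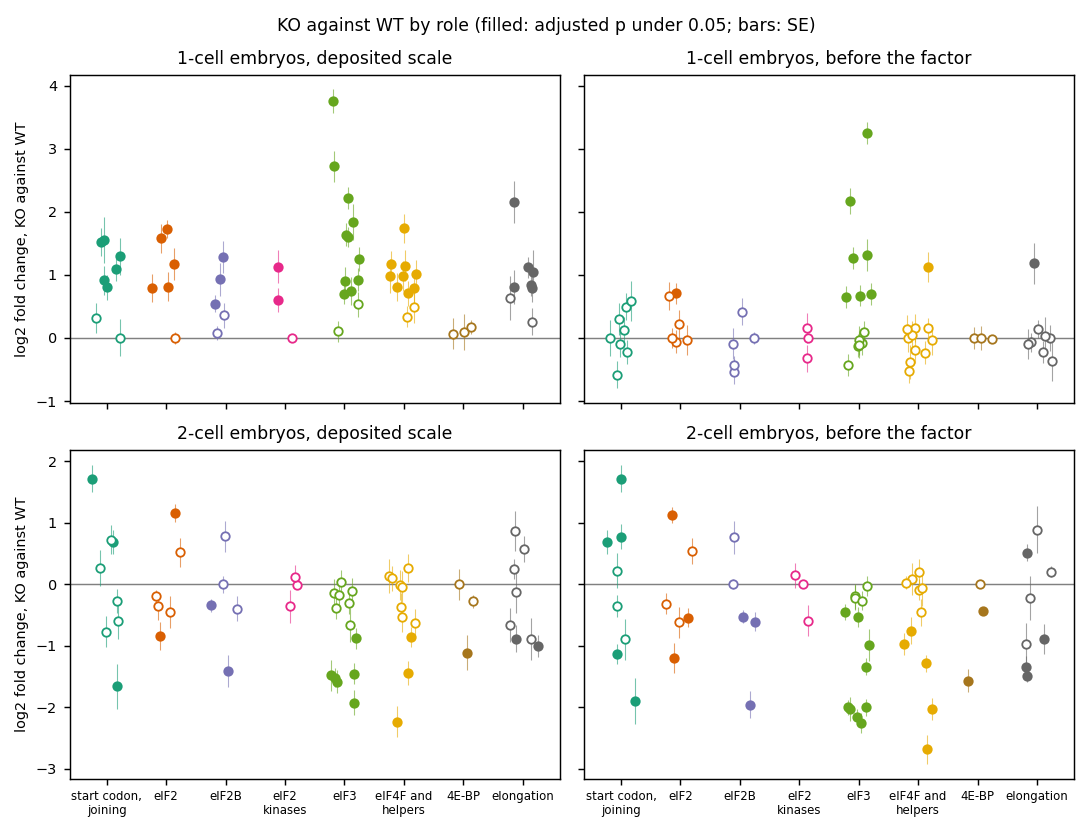
Log2 difference, KO against WT, of each of the 57 genes by role (bars: SE; filled: adjusted p under 0.05), in 1-cell embryos (top) and 2-cell embryos (bottom), on the deposited scale (left) and before the factor (right). At the 1-cell stage 42 points are filled on the left and 10 on the right, while at the 2-cell stage the panels show 3 higher and 16 lower genes on the left and 5 higher and 26 lower on the right.

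In 2-cell embryos the direction was mostly the other way: 3 factor mRNAs were higher in KO and 16 lower (background 7.56% and 12% of all genes), with a median log2 difference of -0.35, beside 0.00 over all genes. The library factors of the 4 libraries were close to each other at this stage, and the calls stood on each scale. All 19 were called in the same direction before the factor and with quantile normalization, and before the factor the counts were 5 higher and 26 lower (background 11.1% and 18.7%). With quantile normalization 9 were higher and 24 lower (background 23.9% and 19.2%). In KO 2-cell embryos 16 members were at the floor in both libraries, against 2 members in WT. Over all genes, 6187 and 6561 were at the floor in the KO 2-cell libraries, and 5562 and 5121 in the WT 2-cell libraries. Floor values were thus more frequent in KO over all genes too. The share of all genes at the floor in both libraries of a group was not counted. The group of lower genes held 6 of 13 eIF3 genes (Eif3a, Eif3c, Eif3f, Eif3g, Eif3h and Eif3m). Of the 11 genes of eIF4F and its helpers 3 were lower (Eif4a3, Eif4e2 and Eif4g1), and of the 5 eIF2B genes 2 (Eif2b4 and Eif2b5). The others were Eef1d, Eef1g, Eif2a, Eif4ebp1 and Eif6. The eIF4F group takes in relatives with other roles, among them Eif4a3 and Eif4e2. The 3 higher genes were Eif1b, Eif2s2 and Eif5b, which act at start codon selection, initiator tRNA delivery and subunit joining.

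The largest difference was that of Eif4a3, the helicase of the exon junction complex, at 14.4 and 15.3 FPKM in WT and 3.27 and 1.64 FPKM in KO (log2 -2.23 ± 0.25, adjusted p = 0.000266). Eif3h read 14.6 and 17.0 FPKM in WT and 4.13 and 2.76 FPKM in KO (log2 -1.93 ± 0.20, adjusted p = 0.000209). Eif6, which keeps the large ribosomal subunit from joining too early, read 18.3 and 19.9 FPKM in WT and 3.58 and 7.77 FPKM in KO (log2 -1.66 ± 0.36, adjusted p = 0.0105). The KO libraries lay below both WT libraries in each of these genes, as they did in 24.7% of all genes. The call of Eif6 was lost when KO 2-cell replicate 1 (log2 -1.20, adjusted p = 0.0835), WT 2-cell replicate 1 (-1.72, 0.0708) or WT 2-cell replicate 2 (-1.60, 0.0990) was left out. Eif3c read 4.80 and 5.19 FPKM in WT and was at the floor in both KO libraries (log2 -1.58 ± 0.19, adjusted p = 0.000431). Eif3m read 5.64 and 7.37 FPKM in WT and 1.52 and 1.67 FPKM in KO (log2 -1.52 ± 0.15, adjusted p = 0.000174). Among the other eIF3 genes, Eif3f and Eif3g were at the floor in both KO libraries, with 3.89 and 5.14 FPKM and 3.65 and 5.72 FPKM in WT.

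Eif1b, a close relative of Eif1, was the factor with the largest positive difference: 9.56 and 13.7 FPKM in WT and 33.3 and 47.8 FPKM in KO 2-cell embryos (log2 1.72 ± 0.22, adjusted p = 0.000678). Eif2s2, the beta subunit of eIF2, read 17.4 and 21.0 FPKM in WT and 44.3 and 43.8 FPKM in KO (log2 1.16 ± 0.15, adjusted p = 0.000565). Eif5b, the GTPase that joins the subunits, read 2.32 and 3.86 FPKM in WT and 5.45 and 5.50 FPKM in KO (log2 0.69 ± 0.20, adjusted p = 0.0390). In all 3 both KO libraries lay above both WT libraries, as they did in 18.8% of all genes. The Eif5b call was lost without KO 2-cell replicate 1 (log2 0.69, adjusted p = 0.140), KO 2-cell replicate 2 (0.68, 0.150) or WT 2-cell replicate 1 (0.41, 0.191), and without WT 2-cell replicate 2 the count of higher genes was 5.

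The 100 bases before the annotated start are shown for 2 sets of genes called in KO 2-cell embryos, the lower eIF3 genes and the higher factors, where the gene has 1 start in the RefSeq promoter table. The other lower factors are not printed. The table is on build GRCm38.p6 and not on the mm9 build of the expression values. The first 5 are eIF3 genes that were lower in KO and the last 3 are the genes that were higher. Sequences read 5′ to 3′ on the gene's strand, and capitals mark, on either strand, the GC box with the letters GGGCGG, the CCAAT box, the TATA box with the letters TATAAA, the ETS core with the letters CCGGAAG, the E box with the letters CACGTG or the YY1 core with the letters AAGATGGC.
Eif3a (chr19:60790694-60790793, minus strand): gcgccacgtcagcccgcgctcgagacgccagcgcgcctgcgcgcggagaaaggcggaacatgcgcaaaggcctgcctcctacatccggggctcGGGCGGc
Eif3c (chr7:126566367-126566466, minus strand): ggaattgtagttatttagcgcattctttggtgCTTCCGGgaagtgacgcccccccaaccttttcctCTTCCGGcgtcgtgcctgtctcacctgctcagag
Eif3f (chr7:108934315-108934414, plus strand): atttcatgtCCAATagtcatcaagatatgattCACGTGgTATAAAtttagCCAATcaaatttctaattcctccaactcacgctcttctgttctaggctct
Eif3g (chr9:20898591-20898690, minus strand): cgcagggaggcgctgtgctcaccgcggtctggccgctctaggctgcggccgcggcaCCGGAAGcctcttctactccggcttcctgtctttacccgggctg
Eif3m (chr2:105017028-105017127, minus strand): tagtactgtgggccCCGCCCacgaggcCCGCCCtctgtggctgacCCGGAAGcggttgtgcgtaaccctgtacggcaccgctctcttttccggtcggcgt
Eif1b (chr9:120492506-120492605, plus strand): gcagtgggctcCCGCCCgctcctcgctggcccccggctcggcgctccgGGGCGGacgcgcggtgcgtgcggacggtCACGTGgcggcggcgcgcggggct
Eif2s2 (chr2:154892907-154893006, minus strand): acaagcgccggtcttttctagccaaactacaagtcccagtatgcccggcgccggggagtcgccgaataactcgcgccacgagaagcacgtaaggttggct
Eif5b (chr1:37997910-37998009, plus strand): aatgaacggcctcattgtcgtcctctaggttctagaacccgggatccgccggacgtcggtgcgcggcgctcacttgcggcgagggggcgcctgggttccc
Each of the 5 eIF3 stretches held a GC box, an ETS core or CCAAT, TATA and E boxes, and no 1 motif was in all 5. Among the higher genes, the Eif1b stretch held GC boxes and an E box and those of Eif2s2 and Eif5b none of the 6 motifs. The table held 56 promoters of 44 members. A GC box was in the last 100 bases of 27 of them, beside 24.7% of all 32851 promoters, an E box in 9 (3.17% of all), an ETS core in 7 (4.52%), a CCAAT box in 10 (18.9%), a TATA box in 2 (5.56%) and a YY1 core in 0 (0.524%). Each motif was searched alone on both strands, and no matches overlap in the stretches printed. A match describes letters in this window and no more. For Eif3a, Eif3c and Eif3f the bases after the annotated start were not found in a GENCODE coding transcript.

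Because the KO embryos stood above WT at the 1-cell stage and mostly below it at the 2-cell stage, the change from 1-cell to 2-cell was compared between the genotypes (KO change minus WT change). It was more negative in KO for 35 of 57 mRNAs and more positive for 0 (background 35.7% and 0.239% of all genes), with a median of -1.14, beside -0.53 over all genes. At an unadjusted p under 0.05 the number was 43 in either direction, beside 5253 of the 11298 genes. Before the factor 21 were more negative and 3 (Eef1a1, Eif1b and Eif2b3) more positive (background 15.8% and 5.91%). Eif2b3 was at the floor in all 4 2-cell libraries, so the size of its change is not defined in either genotype. The eIF3 genes made up 12 of the 35, all but Eif3d, and 10 of the 21 before the factor. The 5 largest interaction values were -4.20 ± 0.36 for Eif3g (adjusted p = 6.88e-05), -3.72 ± 0.27 for Eif3j (3.34e-05), -3.38 ± 0.35 for Eif4a3 (0.000192), -3.22 ± 0.51 for Eif6 (0.00169) and -3.13 ± 0.22 for Eif3m (3.32e-05). This comparison uses the same libraries as the comparisons at each stage and is not independent of them.

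The eIF3 complex, the largest initiation factor, was represented by 13 genes. In WT, 5 subunit mRNAs rose from the 1-cell to the 2-cell stage (Eif3c, Eif3f, Eif3g, Eif3h and Eif3j), and 2 fell (Eif3e and Eif3i), beside 9.45% and 29% of all genes. Before the factor 10 of the 13 rose and 2 fell (background 21% and 14.9%). Eif3h, for example, went from 10.4 and 7.07 FPKM to 14.6 and 17.0 FPKM in WT, and from 12.5 and 13.2 FPKM to 4.13 and 2.76 FPKM in KO. Eif3f read 1.16 and 1.62 FPKM in KO 1-cell embryos, close to WT, and was at the floor in both KO 2-cell libraries while WT rose. Eif3j overlapped between the genotypes in 2-cell embryos after different 1-cell levels: WT stood at the floor at the 1-cell stage and then read 8.69 and 6.80 FPKM, while KO read 23.1 and 29.2 FPKM and then 8.98 and 6.97 FPKM. Eif3i, the WD-repeat subunit, was the most retained eIF3 mRNA in WT 1-cell embryos, at 62.0 and 45.6 FPKM or 45.3% of its oocyte mean. It read 14.6 and 14.2 FPKM in WT and 10.6 and 16.0 FPKM in KO 2-cell embryos, ranges that overlap. Before the factor the eIF3 mRNAs of WT 2-cell embryos spread from 9.89 FPKM (mean, Eif3d) to 132 FPKM (Eif3h).

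**Figure D3:**
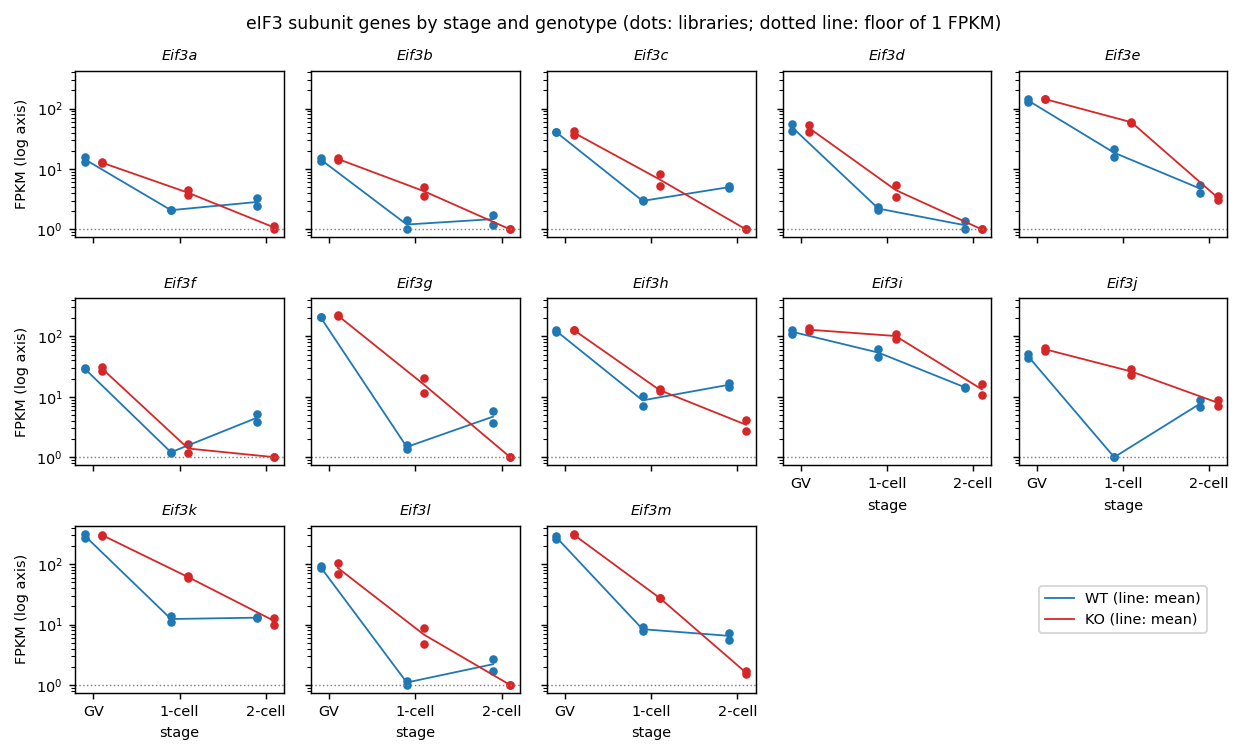
FPKM (log axis, deposited scale) of the 13 eIF3 subunit genes in GV oocytes, 1-cell and 2-cell embryos; dots are libraries, lines join group means, and the dotted line is the floor of 1 FPKM. In WT (blue) Eif3c, Eif3f, Eif3g, Eif3h and Eif3j turn upward after the 1-cell stage, whereas the KO means (red) of all 13 go down from each stage to the next.

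The share of the library's summed FPKM depends on the factor only through values at the floor, which were counted here as 1 FPKM. The 57 genes together took 1.21% and 1.18% of the sum in WT GV oocytes, 0.991% and 1.03% in WT 1-cell and 1.11% and 1.03% in WT 2-cell embryos. In KO they took 1.18% and 1.16%, then 0.968% and 1.01%, then 0.804% and 0.895%. The genotypes overlapped at the 1-cell stage, and KO lay below WT at the 2-cell stage. With floor values left out the 1-cell shares were 1.02% and 1.07% in WT and 0.980% and 1.02% in KO, with both KO libraries narrowly below both WT libraries, and the order at the 2-cell stage was the same. The share of the eIF3 genes in WT went from 0.240% and 0.249% to 0.103% and 0.101% and back to 0.148% and 0.150%, while in KO it went from 0.253% and 0.250% to 0.131% and 0.123% and on to 0.0769% and 0.0740%. The share of the 6 genes grouped as eIF2 and initiator tRNA, which include Eif2a and Eif2d beside the subunit genes, ran differently: 0.0866% and 0.0963% in WT and 0.128% and 0.116% in KO 1-cell embryos, then 0.0623% and 0.0691% in WT and 0.0925% and 0.0928% in KO 2-cell embryos. Eif2s2 carried that order at the 2-cell stage: without it the other 5 genes took 0.0298% and 0.0337% in WT and 0.0228% and 0.0246% in KO, where KO lay below WT. No test was run on the shares. Each library pooled 10 oocytes or embryos, so a change in a few of them and a change in all cannot be told apart.

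**Figure D4:**
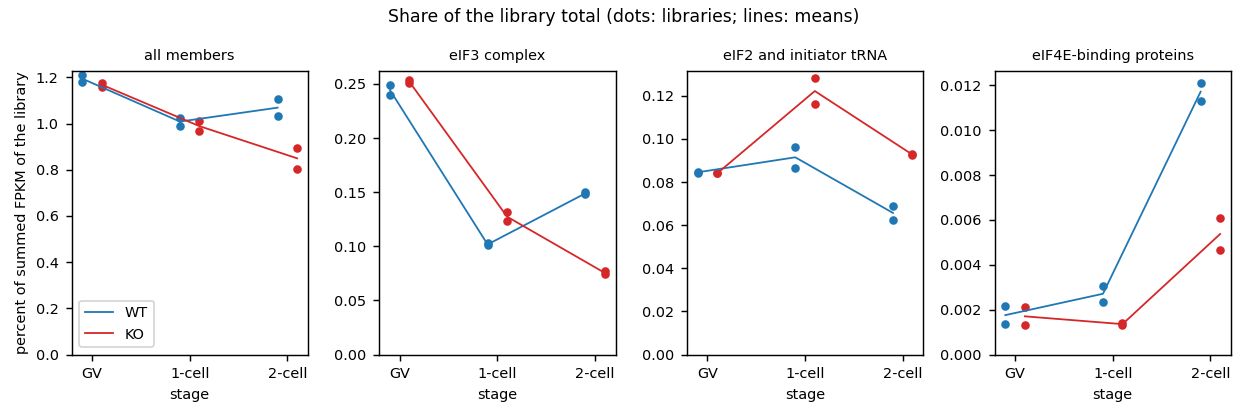
Share of each library's summed FPKM (percent) taken by all 57 factor genes, the eIF3 genes, the 6 genes of the eIF2 and initiator tRNA group and the eIF4E-binding proteins, by stage; dots are libraries and lines join group means. At the 2-cell stage both KO dots lie below both WT dots for all members and eIF3 (0.0769% and 0.0740% against 0.148% and 0.150%) and above them for the eIF2 group, where Eif2s2 carries the order.

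Among the genes for start codon selection and subunit joining, 6 of 8 were higher in KO at the 1-cell stage on the deposited scale (background 52.7%) and 0 before the factor (8.05%). At the 2-cell stage 2 were higher and 1 lower (background 7.56% and 12%). Eif1 and Eif1b, which encode near-identical factors, exchanged places. In WT GV oocytes the ratio of Eif1 to Eif1b was 0.742 and 0.613, in WT 1-cell embryos 1.33 and 1.56, and in WT 2-cell embryos 12.2 and 7.72. In KO it was 0.558 and 0.798, then 0.839 and 0.910, then 2.97 and 1.77. Both embryo stages thus had lower ratios in KO than in WT, without overlap. Eif1 itself read 119 and 114 FPKM in WT and 184 and 226 FPKM in KO 1-cell embryos, and 117 and 106 FPKM in WT and 98.9 and 84.5 FPKM in KO 2-cell embryos, where its log2 difference was -0.28 ± 0.20 (adjusted p = 0.513). Eif6 read 16.5 and 11.1 FPKM in WT and 29.8 and 58.2 FPKM in KO 1-cell embryos (log2 1.55 ± 0.36, adjusted p = 0.00673), a difference of 0.58 ± 0.32 before the factor (adjusted p = 0.384). Eif1a was at the floor in all 4 1-cell libraries and read 3.22 and 1.25 FPKM in KO 2-cell embryos (log2 -0.60 ± 0.29, adjusted p = 0.231). Eif1ad, a gene with an eIF1A-like domain, read 2.06 and 2.81 FPKM in WT and was at the floor in KO 2-cell embryos (log2 -0.77 ± 0.24, adjusted p = 0.0585, and -1.14 ± 0.17, adjusted p = 0.00199, before the factor).

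The 3 subunits of eIF2 differed among themselves. Eif2s1, the alpha subunit that stress kinases phosphorylate, read 15.5 and 8.80 FPKM in WT and 26.9 and 28.6 FPKM in KO 1-cell embryos (log2 1.18 ± 0.26, adjusted p = 0.00498). In 2-cell embryos it read 4.70 and 5.87 FPKM in WT and 2.95 and 4.27 FPKM in KO (log2 -0.46 ± 0.26, adjusted p = 0.324). The 1-cell difference of Eif2s1 before the factor was 0.21 ± 0.23 (adjusted p = 0.931). Eif2s2 read 77.4 and 73.5 FPKM in WT and 244 and 260 FPKM in KO 1-cell embryos (log2 1.73 ± 0.15, adjusted p = 5.85e-05). Its ratio to Eif2s1 was 4.98 and 8.35 in WT and 9.06 and 9.06 in KO 1-cell embryos, and 3.71 and 3.58 in WT and 15.0 and 10.3 in KO 2-cell embryos. Eif2s3x, the gamma subunit, read 8.11 and 6.16 FPKM in WT and 20.5 and 26.2 FPKM in KO 1-cell embryos (log2 1.58 ± 0.23, adjusted p = 0.000868, and 0.67 ± 0.21, adjusted p = 0.0791, before the factor). Its Y-linked partner Eif2s3y was at the floor in 11 of 12 libraries and read 1.62 FPKM in WT 2-cell replicate 1. Of the 5 genes for eIF2B, which recharges eIF2 with GTP, 3 were higher in KO 1-cell embryos on the deposited scale (background 52.7%) and 0 before the factor (8.05%). Eif2b4 went from 4.42 and 4.22 FPKM in WT 1-cell to 4.60 and 4.09 FPKM in WT 2-cell embryos, and from 8.80 and 16.2 FPKM to the floor in KO. Of the 3 kinases of eIF2 alpha in the table (Eif2ak1, Eif2ak3 and Eif2ak4), 2 were higher in KO at the 1-cell stage on the deposited scale, against the same background, 0 before the factor, and 0 were called at the 2-cell stage on either scale.

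In the group of eIF4F and its helpers, the cap-binding protein gene Eif4e was not called in 2-cell embryos. It read 30.6 and 32.5 FPKM in WT and 36.2 and 31.4 FPKM in KO (log2 0.09 ± 0.21, adjusted p = 1.00). At the 1-cell stage it read 55.3 and 36.2 FPKM in WT and 94.4 and 111 FPKM in KO (log2 1.18 ± 0.21, adjusted p = 0.00202), a difference of 0.17 ± 0.15 before the factor (adjusted p = 0.818). Eif4e2 behaved otherwise. It read 3.71 and 5.82 FPKM in WT and 1.17 and 1.00 FPKM in KO 2-cell embryos (log2 -1.44 ± 0.19, adjusted p = 0.000820), and the ratio of Eif4e to Eif4e2 was 8.24 and 5.58 in WT and 31.0 in KO replicate 1. In KO replicate 2 Eif4e2 was at the floor, so 31.4 is a lower bound there. Eif4e3 read 8.74 and 13.2 FPKM in WT and 11.3 and 10.0 FPKM in KO 2-cell embryos, and these ranges overlapped. Among the helicases, Eif4a1 read 18.9 and 17.0 FPKM in WT and 11.0 and 17.0 FPKM in KO 2-cell embryos (log2 -0.37 ± 0.23, adjusted p = 0.394). Eif4a2 read 6.81 and 10.6 FPKM in WT and 11.5 and 7.73 FPKM in KO (log2 0.14 ± 0.27, adjusted p = 1.00). Thus of the 3 Eif4a genes 1, Eif4a3, was called. In KO it went from 33.3 and 45.7 FPKM at the 1-cell stage to 3.27 and 1.64 FPKM at the 2-cell stage, while WT went from 19.5 and 15.0 FPKM to 14.4 and 15.3 FPKM.

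**Figure D5:**
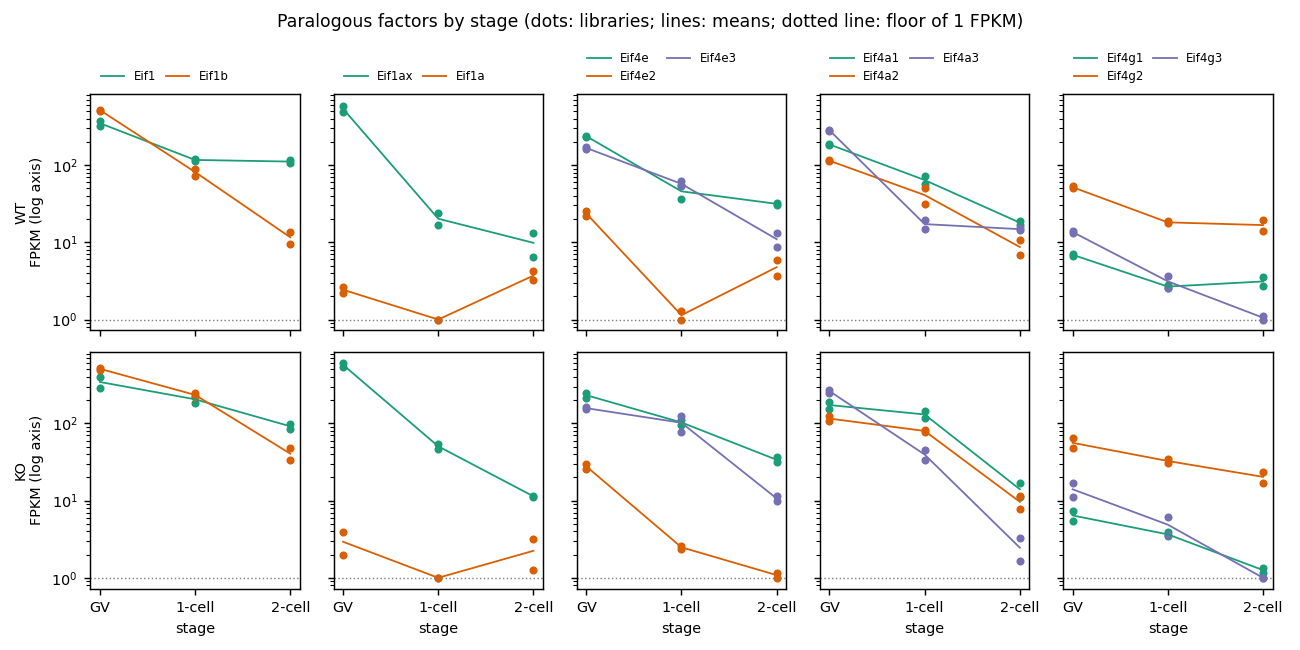
FPKM (log axis, deposited scale) of related factor genes by stage in WT (top) and KO (bottom); dots are libraries, lines join group means, and the dotted line is the floor of 1 FPKM. In the first column Eif1b falls below Eif1 at the 1-cell stage in WT but at the 2-cell stage in KO, and in the third column Eif4e2 rises after the 1-cell stage in WT and goes to 1.17 and 1.00 FPKM in KO.

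The Eif4g genes showed a similar contrast. Eif4g1 read 2.69 and 3.54 FPKM in WT and 1.35 and 1.17 FPKM in KO 2-cell embryos (log2 -0.86 ± 0.16, adjusted p = 0.00560). Eif4g2, whose product lacks the eIF4E-binding site, read 14.1 and 19.4 FPKM in WT and 23.7 and 16.9 FPKM in KO (log2 0.26 ± 0.22, adjusted p = 0.645). The ratio of Eif4g2 to Eif4g1 was 5.23 and 5.47 in WT and 17.6 and 14.5 in KO 2-cell embryos. Eif4g3 was at the floor in both KO 2-cell libraries and read 1.11 and 1.00 FPKM in WT. The genes for the eIF4E-binding proteins, which keep eIF4E from eIF4G, did not exceed 8.43 FPKM in any library on the deposited scale. Before the factor, Eif4ebp1 read 1.45 and 4.08 FPKM in WT GV oocytes and 35.3 and 34.6 FPKM in WT 2-cell embryos. On the deposited scale Eif4ebp1 read 4.10 and 4.25 FPKM in WT and 1.86 and 1.00 FPKM in KO 2-cell embryos (log2 -1.11 ± 0.29, adjusted p = 0.0241). Eif4ebp2 read 1.39 and 1.47 FPKM in WT and was at the floor in KO (log2 -0.28 ± 0.10, adjusted p = 0.103), and Eif4ebp3 was at the floor in all 4 2-cell libraries.

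Of the 8 genes grouped under elongation, 6 were higher in KO at the 1-cell stage on the deposited scale (background 52.7%). Before the factor it was 1, Eef1e1 (8.05%), which is in this group by its symbol only. At the 2-cell stage 2 were lower (background 12%), Eef1d and Eef1g, both subunits of the eEF1A exchange factor. Eef1d read 2.83 and 3.72 FPKM in WT and 1.23 and 1.00 FPKM in KO (log2 -1.01 ± 0.18, adjusted p = 0.00345). The third subunit gene, Eef1b2, read 5.13 and 4.93 FPKM in WT and 6.27 and 5.96 FPKM in KO (log2 0.24 ± 0.16, adjusted p = 0.468). Eef1a1 itself read 24.3 and 23.3 FPKM in WT and 32.5 and 39.3 FPKM in KO 2-cell embryos (log2 0.57 ± 0.21, adjusted p = 0.108, and 0.51 ± 0.14, adjusted p = 0.0321, before the factor). The KO libraries thus lay above WT for Eef1a1 and Eef1b2 (18.8% of all genes) and below WT for Eef1d and Eef1g (24.7%). At the 1-cell stage Eef1a1 read 46.3 and 37.6 FPKM in WT and 59.3 and 89.5 FPKM in KO (log2 0.79 ± 0.21, adjusted p = 0.0129, and -0.22 ± 0.17, adjusted p = 0.655, before the factor). Eef2, the translocase, read 4.58 and 4.51 FPKM in WT and 5.87 and 12.7 FPKM in KO 1-cell embryos (log2 0.81 ± 0.27, adjusted p = 0.0337). In 2-cell embryos it read 5.18 and 4.65 FPKM in WT and 2.56 and 2.89 FPKM in KO (log2 -0.67 ± 0.27, adjusted p = 0.145, and -0.89 ± 0.25, adjusted p = 0.0332, before the factor). Eef2k, the kinase that inhibits eEF2, was not called at either stage: it read 17.1 and 14.9 FPKM in WT and 17.4 and 36.6 FPKM in KO 1-cell embryos, and 4.46 and 3.22 FPKM in WT and 2.73 and 4.21 FPKM in KO 2-cell embryos. Eif5a, which relieves stalled ribosomes and carries hypusine, was among the highest factors throughout. It read 146 and 115 FPKM in WT and 208 and 349 FPKM in KO 1-cell embryos, and 123 and 95.7 FPKM in WT and 41.0 and 81.5 FPKM in KO 2-cell embryos (log2 -0.89 ± 0.34, adjusted p = 0.111).

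Genes that work beside the factors were read from lists chosen for their function. Of 9 genes for termination and ribosome recycling, 6 were higher in KO 1-cell embryos on the deposited scale (background 52.7%) and 2 (Gspt1 and Gspt2, encoding eRF3) before the factor (8.05%). In 2-cell embryos 2 were lower on the deposited scale (background 12%), Denr and Mcts2, whose products act in recycling and reinitiation. Denr read 7.21 and 9.30 FPKM in WT and 2.64 and 2.58 FPKM in KO (log2 -1.35 ± 0.16, adjusted p = 0.000459). The list for signalling to the factors has 17 genes, among them Atf4 and the ribosomal protein gene Rps6. Of these 17, 8 were higher in KO 1-cell embryos on the deposited scale and 2 before the factor. The background was 52.7% and 8.05% of all genes. At the 2-cell stage 2 were higher (Pdcd4 and Rheb) and 5 lower (Rps6, Mknk2, Ppp1r15a, Ppp1r15b and Atf4) on either scale, beside 7.56% and 12% of all genes on the deposited scale and 11.1% and 18.7% before the factor. Pdcd4, an inhibitor of eIF4A, read 1.92 and 2.80 FPKM in WT and 11.3 and 10.5 FPKM in KO (log2 1.84 ± 0.17, adjusted p = 9.66e-05). Atf4, the transcription factor induced when eIF2 alpha is phosphorylated, read 9.98 and 13.3 FPKM in WT and 3.35 and 2.43 FPKM in KO (log2 -1.70 ± 0.32, adjusted p = 0.00520). Ppp1r15a, which directs a phosphatase to eIF2 alpha, read 8.51 and 7.81 FPKM in WT and 1.02 and 1.00 FPKM in KO (log2 -2.19 ± 0.25, adjusted p = 0.000373).

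Several factor genes have near-identical copies or processed pseudogenes, among them Eef1a1, Eif1, Eif3j, Eif5a, the pair Eif1a and Eif1ax, and the pair Eif2s3x and Eif2s3y. How reads shared between copies were counted is not given in the sources used here, so the levels of these genes are uncertain.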

How the data were processed

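Per the labels' protocols, libraries were made by Smart-seq2 from 10 oocytes or embryos each, with ERCC spike-in RNA in the lysis buffer. The authors deposited 1 table of FPKM with 1 column per library, and TopHat2 2.1.1, Cufflinks 2.2.1 and mm9 are named in the submitters' processing notes. Of its rows 11298 were complete, 1 incomplete row was left out and 0 were ERCC rows. The library factors were found from the values themselves: after division 100% of the values above the floor were 6-digit numbers within 0.01 of a whole last digit. The decimal point of a factor was set so that totals lay nearest those of the oocytes. No gene was removed by a filter.

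Values were analysed as log2(FPKM + 1), a scale that understates changes of low genes, with limma 3.58.1 in R 4.3.3 (intensity trend, all 12 libraries in 1 fit, two-sided p, Benjamini-Hochberg over all genes of a contrast, called under 0.05). For FPKM before the factor, the highest floor of the libraries compared was applied to all of them, and all genes were refitted. The fit was tested on simulated data. In each contrast the text names the 5 called members with the largest change in each direction, and the paralogs and 1 member of each step whatever they did. Values after ± are SD beside FPKM and SE beside log2 differences. Other settings were quantile normalization, a pseudocount of 0, a mean of at least 5 FPKM, a replicate block and leaving out each library. The members, roles and lists were chosen with earlier results of these data known.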

Additional observations from a re-analysis of the deposited data

Results flagged for a closer look

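The change from the 1-cell to the 2-cell stage differed between the genotypes, by a test of the difference itself (the interaction in the limma model, adjusted over all genes), for 35 of the 57 factor mRNAs. In each of the 35 the change was more negative in KO, beside 35.7% of all genes, and before the library factor the counts were 21 more negative and 3 more positive (15.8% and 5.91% of all genes). The 5 largest interaction values on the log2 scale were -4.20 for Eif3g, -3.72 for Eif3j, -3.38 for Eif4a3, -3.22 for Eif6 and -3.13 for Eif3m. Before the library factor these 5 values were -3.78, -2.53, -2.84, -2.48 and -2.68, and each stayed called. KO 1-cell libraries carry larger factors than the other embryo libraries, and KO 2-cell values of Eif3g were at the floor.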

How the results depend on the processing

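Most counts outside the 2-cell comparison changed with the library factor. Before the factor, the number of members called higher and lower in KO was 10 and 0 in 1-cell and 5 and 26 in 2-cell embryos, WT 1-cell against GV gave 4 and 29, WT 2-cell against 1-cell 29 and 13, and the interaction 3 and 21. With quantile normalization KO against WT gave 8 higher and 5 lower in 1-cell embryos (12.8% and 16.4% of all genes) and 9 higher and 24 lower in 2-cell embryos (23.9% and 19.2%), WT 1-cell against GV gave 14 higher and 21 lower (33.4% and 23.8%), WT 2-cell against 1-cell 27 higher and 15 lower (20.0% and 26.3%), and the interaction 8 higher and 23 lower (31.4% and 19.6%). The number higher in KO 2-cell embryos was 6 when genes with a mean below 5 FPKM were left out and 5 with a pseudocount of 0. Leaving out 1 library at a time gave 0 to 1 lower in KO GV oocytes, 24 to 46 higher in KO 1-cell embryos, 2 to 5 higher and 12 to 14 lower in KO 2-cell embryos, 54 to 55 lower in WT 1-cell against GV, 6 to 8 higher and 15 to 21 lower in WT 2-cell against 1-cell, and 24 to 40 lower in the interaction. Where an arm was left with 1 library, that library was assumed to vary like the other groups. The cause of these shifts was not tested. Of the 33 values of single genes named by rule, 33 kept their direction and call before the factor and 32 with quantile normalization, and over the left-out libraries 145 values kept their call and 7 lost it (Eif5b, Eif6 and Eif1a).

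A fit with the replicate block, which takes equal replicate numbers as pairs, gave 42 higher in KO 1-cell embryos, 3 higher and 15 lower in KO 2-cell embryos, 56 lower in WT 1-cell against GV, 11 higher and 21 lower in WT 2-cell against 1-cell, and 33 lower in the interaction. The labels give no pairing. The log2 difference of replicate 1 minus replicate 2 was taken within each group and correlated between groups. That correlation ran from -0.61 to 0.38 over 3769 genes, so the numbers were not taken as pairs. FPKM give no depth, and levels under the floor cannot be compared.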

Other observations

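Levels of 3 further members are given here, and those of several others are not printed. Eif4h, which stimulates the eIF4A helicase, read 69.6 and 48.2 FPKM in WT GV oocytes, 1.35 and 1.69 FPKM in WT and 5.79 and 9.33 FPKM in KO 1-cell embryos (log2 1.74 ± 0.23, adjusted p = 0.000529). In 2-cell embryos it read 2.11 and 2.16 FPKM in WT and 1.00 and 1.03 FPKM in KO (log2 -0.64 ± 0.23, adjusted p = 0.0954, and -0.97 ± 0.18, adjusted p = 0.00572, before the factor). Eif2a, an alternative carrier of the initiator tRNA, read 3.41 and 4.62 FPKM in WT and 2.35 and 1.29 FPKM in KO 2-cell embryos (log2 -0.84 ± 0.23, adjusted p = 0.0318). Eif5, which makes eIF2 hydrolyse its GTP at the start codon, read 13.7 and 20.9 FPKM in WT and 25.3 and 32.6 FPKM in KO 2-cell embryos (log2 0.73 ± 0.23, adjusted p = 0.0591, and 0.68 ± 0.19, adjusted p = 0.0368, before the factor). These genes were chosen after their values were seen.

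The 10 members higher in KO 1-cell embryos before the factor had a lower median transcript length than the other 47. The median longest coding transcript in GENCODE was 1942 bases over the 9 with a length and 2708 bases over the 47. Single lengths overlapped: among the 9, Eif3b had 2945 and Eif4h 2726 bases, while Eif1b, among the 47, had 1035 bases. The part of transcript length in the result was not tested.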
